A study of Ovis aries with 6 samples.

Results

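The features described here are the 200 unnamed transcript features with the most reads in a long-read survey of sheep (Ovis aries) pituitary RNA. They were taken from the 4610 rows that carry a running number, such as novel3863, in place of a gene symbol. The table holds 26067 features in all, and 21457 of them have a gene name. Counts were rounded to whole numbers and summed over the 6 libraries C1 to C6, and the 200 unnamed rows with the highest sum were kept. The summed counts therefore chose the members, and the levels and shares below are a description with no test. The only annotation text in the files is a gene name column, which was empty for 200 of 200 members and for all 4610 unnamed rows, and filled for all 21457 others. No coordinate, sequence, strand or length of a member is given in the files used here, so none is printed and no biological role is assigned to any of them.

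Long-read complementary DNA sequencing reads whole transcripts, and software that collapses the reads reports a new feature wherever they do not match an annotated gene. Such features can be long noncoding RNAs, unannotated genes, antisense transcripts, transcribed repeats, fragments of neighbouring genes, or products of priming inside A-rich stretches. A count of reads alone does not separate these kinds. In tissues whose annotation is incomplete, a few such features can take a large part of the reads.

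The study describes 3 small-tailed Han sheep, a breed called the high-reproduction group, and 3 Wadi sheep, called the low-reproduction group. Total RNA of the pituitary, 500 ng per library, was reverse transcribed, amplified and read on the Oxford Nanopore platform. No label names the breed, age or sex of libraries C1 to C6, so each library was described by itself, without replicates, and no comparison between breeds was made. Lists of 6 values run from C1 to C6. A level in CPM is the rounded count per 1000000 gene counts of that library, and TPM are the authors' values, which also divide by a length. Intervals are 95% intervals and cover only counting error, since amplified reads without molecular identifiers are not independent molecules.

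Totals ran from 1981644 to 2732911 gene counts per library. The label pituitary was checked against 7 hormone genes (PRL, GH, CGA, LHB, FSHB, TSHB and POMC). They took 0.0139%, 0.00472%, 0.00503%, 14.2%, 30.0% and 4.71% of the counts of C1 to C6, and 2 of the 7 were at 0 in each of C1, C2 and C3. The 10 cerebellar neuron genes listed (ZIC1, ZIC2, GABRA6, CBLN1, CBLN3, NEUROD1, PCP2, CALB1, CA8 and PVALB) went the other way. Their summed level over C1 to C6 was 4468, 4414, 4075, 31.5, 24.0 and 103 CPM, and each of the 10 exceeded 10 CPM in C1, C2 and C3. The 7 general neuron genes measured (SNAP25, SYT1, STMN2, NEFL, NEFM, MAP2 and GAP43) summed to 4897, 4920, 4803, 684, 909 and 443 CPM. The 5 fibroblast genes (COL1A1, COL1A2, COL3A1, DCN and LUM) summed to 83.2, 204, 174, 1439, 163 and 1041 CPM, and HBB of red blood cells had 12.0, 16.8, 19.3, 36.8, 0.413 and 45.4 CPM. Libraries C1, C2 and C3 thus went against their label, and values within C4, C5 and C6 are given separately below.

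The 200 members took 14.5%, 13.9%, 14.1%, 11.9%, 7.75% and 11.4% of the gene counts of C1 to C6. The 95% Wilson interval for C5, the lowest, was 7.72 to 7.78%, and for C1, the highest, 14.4 to 14.5%. C5 is also the library with the most hormone counts. With the 7 hormone genes left out of the totals, an alternative added once the data were known, the shares were 14.5%, 13.9%, 14.1%, 13.9%, 11.1% and 11.9%. C5 remained the lowest, and the range from lowest to highest library narrowed. All 4610 unnamed features together took 20.1%, 19.3%, 19.4%, 14.7%, 9.94% and 14.1% of the counts.

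**Figure D1:**
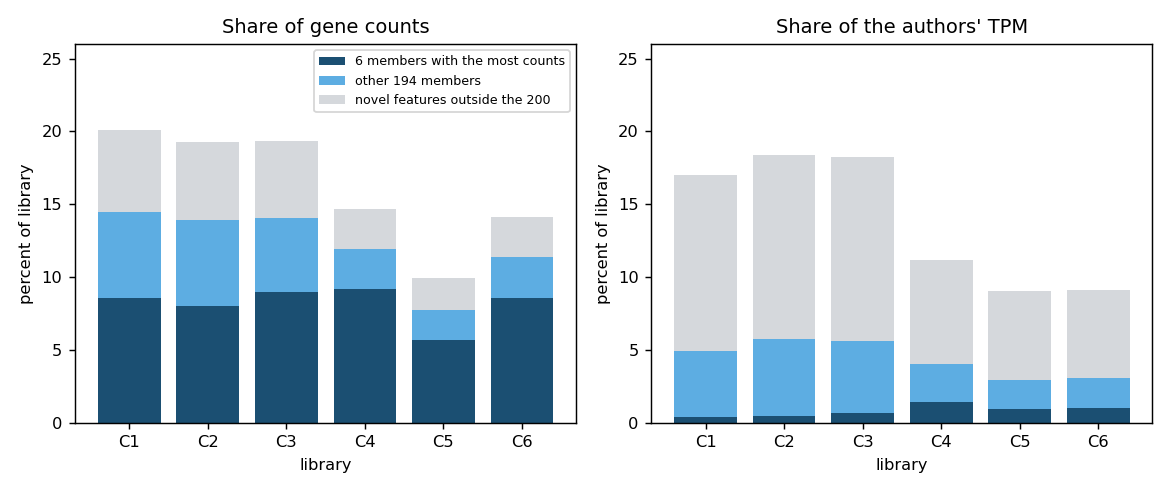
Percent of each library's gene counts (left) and of the authors' TPM (right) in the 6 members with the most counts, the other 194 members and the unnamed features outside the 200, for libraries C1 to C6. By counts the members hold 7.75 to 14.5% of a library, most of it in 6 features, and by TPM they hold 2.95 to 5.78%, most of it outside those 6.

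Reads were concentrated in a few members. The first, novel3863, held 21.1% of all member counts, the first 6 held 66.1%, the first 20 held 81.7% and the first 100 held 94.4%. At the end of the ranking the counts were close together. The last members inside were novel3537, novel3359 and novel3732 with 795, 785 and 779 summed counts, and the first unnamed features outside were novel1593, novel4383 and novel1934 with 778, 777 and 775. Counts thus ran on without a gap across the boundary at 200. Among all 26067 features, the 15 with the most summed counts included 6 members, the first 100 included 14 and the first 1000 included 61.

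The leading feature was novel3863, which had rank 2 among all features by summed count. It had 87878, 83326, 73123, 51865, 38972 and 39611 counts, or 37682, 30490, 27670, 22702, 16107 and 19989 CPM. Among all features its rank was 1 in C1, C2 and C3, 2 in C4 and C6, and 3 in C5. Its levels in C1, C2 and C3 all lay above those in C4, C5 and C6. The highest was 2.34 times the lowest (95% exact conditional interval 2.31 to 2.37), which is below 2.57, the lower quartile of that ratio over the members.

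The next 5 members did not share that profile. Feature novel1 had 12080, 15359, 16382, 13758, 8109 and 16985 CPM, and novel1726 had 10706, 12132, 12039, 10473, 7054 and 15913 CPM. Both were highest in C6 and lowest in C5, with ratios of 2.09 and 2.26. Feature novel4610 had 13314, 9391, 11584, 13355, 6243 and 8614 CPM, so that C1 and C4 were nearly equal and C5 was lowest. Features novel702 and novel699, in contrast, were lowest in C1. The first had 7422, 8051, 13381, 17228, 10968 and 13463 CPM, and the second had 4342, 4646, 8866, 14069, 8436 and 10500 CPM. Both were highest in C4, with ratios of 2.32 and 3.24.

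Together these 6 held 8.55%, 8.01%, 8.99%, 9.16%, 5.69% and 8.55% of the counts, with C5 lowest and the other 5 libraries close together. The other 194 members held 5.90%, 5.90%, 5.07%, 2.74%, 2.06% and 2.81%, and these shares fell into 2 separate ranges, above 5% in C1, C2 and C3 and below 3% in C4, C5 and C6. The gap stayed with the hormone genes left out of the totals, at 5.90%, 5.90%, 5.07%, 3.20%, 2.94% and 2.95%. This order is not particular to the members. The 3 highest libraries were C1, C2 and C3 for 61.5% of the members and for 62% of the other unnamed features with at least 60 counts.

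**Figure D2:**
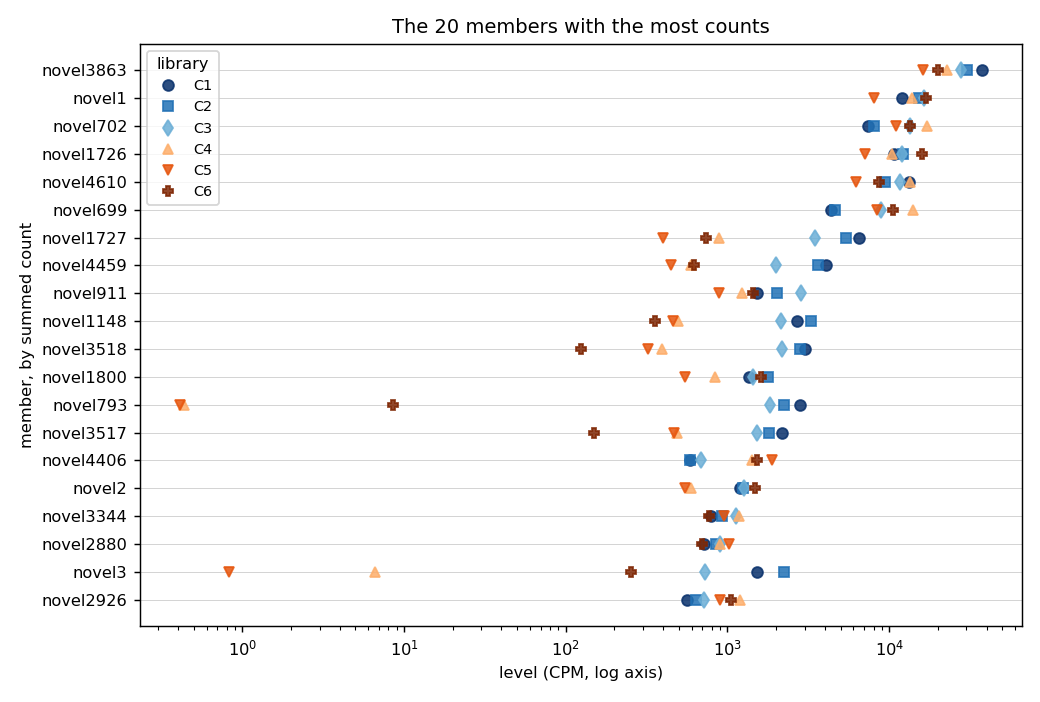
Level in CPM (log axis) of the 20 members with the most counts, 1 point per library C1 to C6, members ordered by summed count from the top. The first 6 lie between 4342 and 37682 CPM in all libraries, while novel793 reaches 2795 CPM in C1 and 0.413 CPM in C5, and novel3 reaches 2244 CPM in C2 and 0.827 CPM in C5.

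Of the next 14 members, 9 were highest in C1, C2 or C3. So were 1667 of 2861 named genes with at least 779 summed counts, and 6926 of all 13248 features with at least 60 counts. Feature novel1727, whose number follows novel1726, had 6520, 5391, 3482, 886, 400 and 733 CPM, a ratio of 16.3 (15.3 to 17.4). Its neighbour in number had a ratio of 2.26, so consecutive numbers did not always go with like profiles. Features novel4459, novel1148, novel3518 and novel3517 had ratios of 9.10, 9.11, 24.2 and 14.5, each with all of C1, C2 and C3 above all of C4, C5 and C6. Feature novel4406 ran the other way, with 588, 586, 689, 1426, 1880 and 1518 CPM, and was highest in C5. Features novel3344 and novel2880 were among the steadiest members, at 768 to 1175 CPM and 697 to 1017 CPM.

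How far the members varied was described by the ratio of the highest to the lowest library, and a feature was called at a ratio of at least 2. Of the 200 members, 181 (90.5%) were called, against 75% of 2861 named genes with at least as many summed counts (779) and 84.9% of all 13248 features with at least 60 counts. Of the 2915 other unnamed features with at least 60 counts, 95% were called. The members' share was thus near that of all features, and lay between those of named genes of like depth and of the other unnamed features. The median ratio was 4.27 in the members, 3.16 in the named genes of like depth and 4.31 in all features. In the authors' TPM the members and the named genes of like depth were almost level, at 86% and 85.5%. These numbers count features and are not replicates of a condition.

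Much of the spread lay between C1, C2 and C3 on one side and C4, C5 and C6 on the other. Within C4, C5 and C6 alone, 84 members (42%) reached a ratio of 2, against 34.1% of the named genes of like depth and 45.8% of all features. Within C1, C2 and C3 alone, 16 members (8%) did, against 4.44% and 19%. For the other unnamed features these shares were 54.9% within C4, C5 and C6 and 26.8% within C1, C2 and C3. The median ratio of the members was 1.79 within C4, C5 and C6 and 1.36 within C1, C2 and C3. In bulk tissue, fewer cells of a type and less RNA per cell cannot be told apart.

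**Figure D3:**
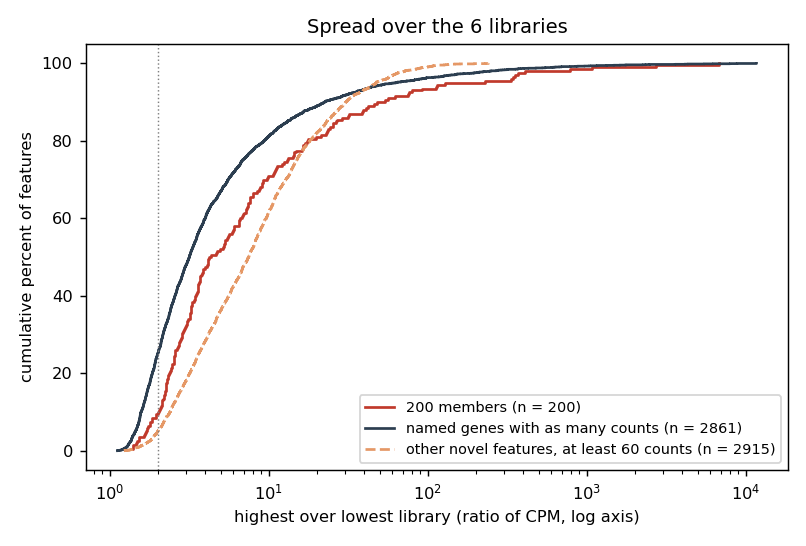
Cumulative percent of features against the ratio of the highest to the lowest of the 6 libraries (CPM, log axis), for the 200 members, 2861 named genes with at least as many counts and 2915 other unnamed features with at least 60 counts. The dotted line marks a ratio of 2, which 90.5% of members, 75% of the named genes and 95% of the other unnamed features reach.

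By CPM, the highest library was C1 for 62 members, C2 for 45, C3 for 41, C4 for 26, C5 for 7 and C6 for 19. In the authors' TPM these numbers were 26, 27, 51, 57, 19 and 20, so C4 led on that scale. The shares that follow are by CPM. C1 was highest for 31% of members, against 24.6% of named genes of like depth and 20.2% of all features. C5 was highest for 3.5% of members, against 10.6% of named genes of like depth and 11.8% of all features. It was the lowest library for 102 members (51%), against 41.3% and 33.8%. With the hormone genes left out of the totals, C5 was highest for 7.5% and lowest for 26.5% of members, against 23.8% and 20.2% of the named genes of like depth. The place of C5 thus changed with the totals used, in the members and in the named genes. The 3 highest libraries were C1, C2 and C3 for 123 members (61.5%), against 47.1% of the named genes of like depth and 38.8% of all features. They were C4, C5 and C6 for 19 members (9.5%), against 20% and 22.8%. The other unnamed features with at least 60 counts had nearly the members' shares, 62% and 6.35%. In those features C1 was highest for 29.9% and C5 for 5.97%, and C5 was lowest for 38.3%.

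**Figure D4:**
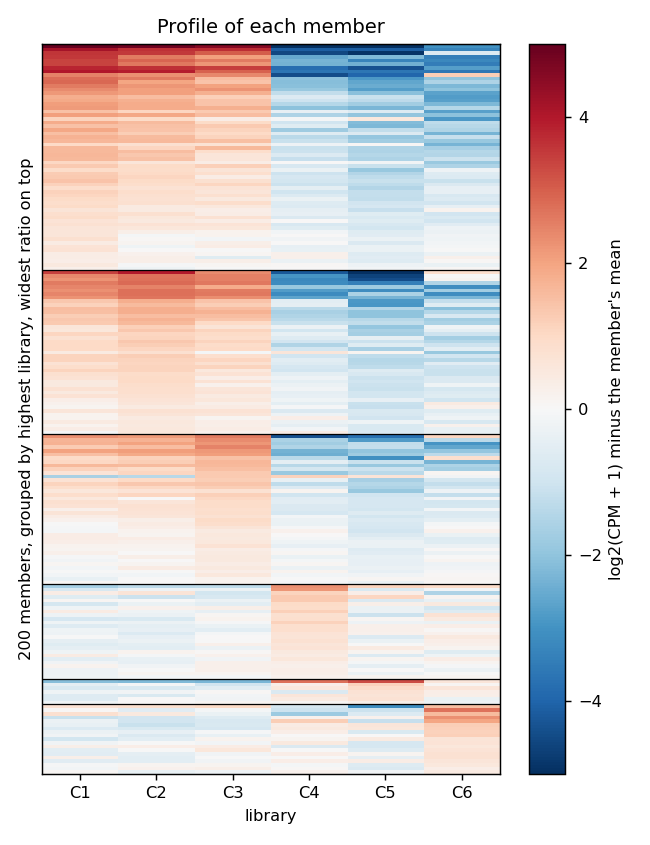
Profile of each of the 200 members over libraries C1 to C6, as log2(CPM + 1) minus the member's own mean, grouped by highest library (C1 at the top, C6 at the bottom) and ordered within a group by ratio. Of the rows, 148 are in the upper 3 groups, highest in C1, C2 or C3, and the widest of them are near absent from C4 and C5.

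The widest member was novel793, with 6518, 6151, 4810, 1, 1 and 17 counts. In CPM that is 2795, 2251, 1820, 0.438, 0.413 and 8.58, so that C4 and C5 each held a rounded count of 1. The ratio of C1 to C5 was 6762, with a 95% interval of 1213 to 267143 because it rests on 1 count in C5. Within C4, C5 and C6 alone its ratio was 20.8. Among the 2861 named genes of like depth, the most alike profile was that of CBLN1, which encodes the synaptic organizer cerebellin of cerebellar granule neurons. Likeness was the root mean square difference of mean-centred log2(CPM + 1) over the 6 libraries, and it was 0.57 for CBLN1 against a median of 4.70 for all 2861 genes. The next was LOC105607568, which has no other name in the files, at 1.00. CBLN1 belongs to the cerebellar list above, whose summed level moved with it, and the part of those cells in the result was not tested.

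Feature novel3 was the next widest, with 3535, 6133, 1922, 15, 2 and 500 counts. Unlike novel793 it was well measured in C6, at 252 CPM, and its ratio of C2 to C5 was 2715 (751 to 22423). It was also the widest member within C4, C5 and C6, at 305. The nearest named gene was ZIC2, a transcription factor of the cerebellum and dorsal neural tube, at a difference of 0.89 against a median of 3.66, and the next was KCNJ9, at 0.93, so the matches were looser. Its neighbours in number, novel1 and novel2, had ratios of 2.09 and 2.71.

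Features novel596 and novel1586 were nearly confined to C1, C2 and C3 among these libraries. The first had 1034, 856, 837, 1, 1 and 3 counts, and the second had 664, 701, 595, 1, 0 and 4. For novel1586, C5 at 0 counts was set to 3 counts, so its level in C1 was at least 230-fold higher. Both had PCP2, a marker of cerebellar Purkinje cells, as the most alike named gene, at differences of 0.29 and 0.20, and LHX1, a transcription factor that Purkinje cells also express, as the next, at 0.46 and 0.26. PCP2 itself had 199, 182, 162, 0, 0 and 1.01 CPM. It is on the cerebellar list, whose part in these results was not tested.

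Of the other wide members, novel3036, with 143, 102, 83.2, 1.75, 0.413 and 0.505 CPM, was most like RBFOX3, a splicing factor of mature neurons, at 0.22, and then SLC27A3, a member of the fatty acid transport protein family, at 0.29. Features novel2560 and novel2592 were both most like CACNG2, a subunit that traffics AMPA-type glutamate receptors, at 0.43 and 0.34, and then CABP1, a neuronal calcium-binding protein gene, at 0.46 and 0.37. Among C1, C2 and C3 both were highest in C1, with ratios of 2.84 and 2.28 within those libraries. The differences are descriptions over 6 libraries, the nearest of 2861 genes is near by choice, and a like profile shows no shared function.

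A further set of wide members kept a clear level in C6. Feature novel2693 had 146, 131, 178, 0.438, 1.24 and 61.6 CPM, and its nearest named gene was ALDOC, an aldolase of astrocytes and of a subset of Purkinje cells, at 0.43, followed by DAO, the D-amino acid oxidase gene, at 0.46. ALDOC had 2498, 2522, 3182, 46.0, 50.4 and 772 CPM, so C6 lay between the other sets of libraries in both. Feature novel1688 had 645, 634, 442, 1.31, 0.827 and 32.8 CPM, and was most like KCNJ9, a potassium channel subunit gene, at 0.31, and then ZIC4 at 0.60. Feature novel284 had 243, 294, 261, 4.81, 0.827 and 43.4 CPM, and was most like SAPCD2, at 0.36, and then CDR1 at 0.41. All 10 of the widest members were highest in C1, C2 or C3. Such features were common in every set, at 148 of the 200 members and 1667 of the 2861 named genes of like depth. They were 2258 of the 2915 other unnamed features and 6926 of all 13248 features with at least 60 counts. No such count was made for the widest named genes.

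Features that were high in the other libraries were fewer and less wide. Feature novel1905, 1 of the 7 members highest in C5, had 3.43, 3.29, 3.03, 130, 188 and 28.8 CPM. Its order over C5, C4 and C6 is that of the hormone share. Other members, such as novel887 and novel4587, had that order too, and a link with the hormone genes was not tested. The ratio of C5 to C3 in novel1905 was 62.1 (31.3 to 145). It is the widest of the 19 members with C4, C5 and C6 on top. Feature novel3732, the last of the 200, had 9.86, 12.8, 13.2, 167, 73.2 and 64.1 CPM and was highest in C4. Feature novel161 stood out in C4 alone, with 25.3, 38.1, 36.7, 213, 26.5 and 41.4 CPM.

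The widest member with its highest level in C6 was novel4123, with 206, 219, 246, 69.6, 13.6 and 360 CPM, though C1, C2 and C3 lay close below. Feature novel3730 had 73.8, 46.5, 64.7, 34.1, 32.7 and 466 CPM, and novel484 had 38.2, 42.4, 53.0, 96.3, 97.1 and 414 CPM. Both stood apart in C6, with no other library above 97.1 CPM. Feature novel3861 was high in C6 and C4 only, with 405, 252, 280, 1169, 219 and 1937 CPM. The summed fibroblast genes above were also highest in C4 and C6, and HBB was highest in C6. The part of those or other cells in these results was not tested. Features novel1905, novel4123, novel3730, novel484 and novel3861 were picked for display with their values known.

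At the other end, the steadiest member was novel851, with 51.5, 56.0, 57.1, 70.9, 66.1 and 64.6 CPM and a ratio of 1.38 (1.08 to 1.76). Feature novel1954 had 214, 202, 230, 195, 164 and 208 CPM, a ratio of 1.40 (1.23 to 1.59), and novel4443 the same ratio, 1.40. The 10 steadiest members had ratios up to 1.70, and they included novel2880 and novel3344 from the 20 with the most counts. A steady level over these libraries was thus found at both high and low counts.

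The second measure set against the counts was TPM. Where TPM is the count divided by a length and rescaled to 1000000 per library, its ratio to CPM holds a library constant divided by that length. A higher log2 ratio then stands for a shorter length, and 1 log2 unit for a 2-fold difference in length. No source gives the lengths behind the TPM, so they are read only relative to each other. An implied length is thus the divisor behind the TPM, and whether it equals the length of the transcript was not tested.

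In the members the ratio of TPM to CPM was the same number in every library apart from a constant per library. That constant was set by a median over the members themselves. After it was taken off, the ratio ranged over the libraries by at most 0.01 log2 units in 199 of 200 members. Libraries with at least 10 counts were used, and the median range was 7.2e-06. The exception was novel3600, with a range of 0.0555. All 2891 of the other unnamed features that could be read this way were also constant. Of the named genes of like depth 41.6% were, and the rest moved by up to 6.33 log2 units. Of all 13157 features with at least 60 counts that could be read this way, 55.8% were constant. A single length per feature gives such a constant ratio. In the named genes without it, TPM and CPM profiles differ in shape.

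**Figure D5:**
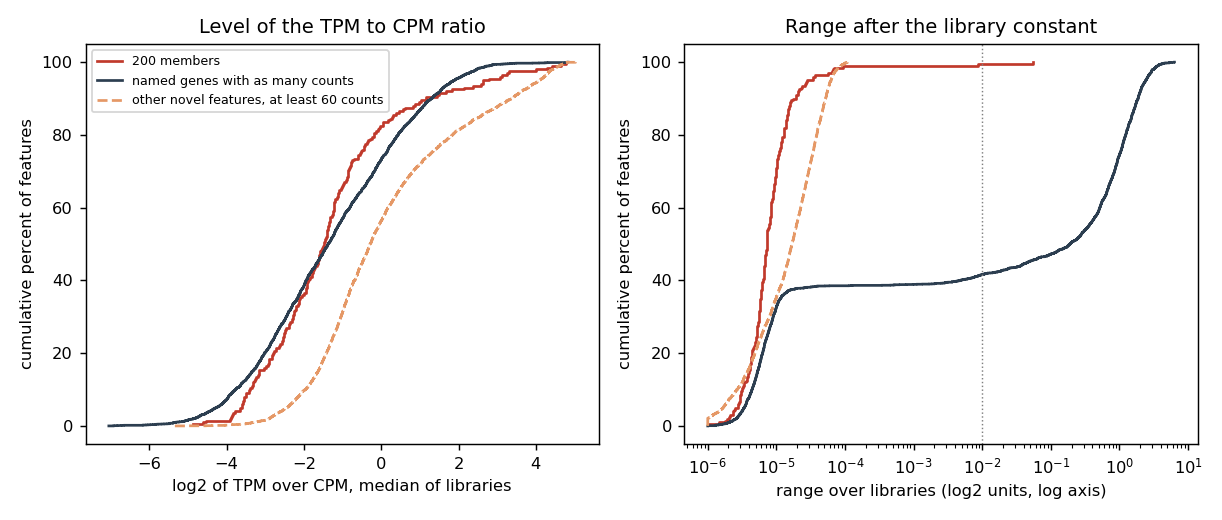
Cumulative percent of features against the log2 ratio of TPM to CPM, median over libraries (left), and against its range over libraries after a constant per library was taken off (right, log axis, values under 1e-06 drawn at 1e-06), for the 200 members, 2861 named genes of like depth and the other unnamed features with at least 60 counts. On the right 99.5% of members and 41.6% of the named genes lie at or under 0.01, the dotted line.

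The median log2 ratio of TPM to CPM was -1.47 in the members, with the central 90% between -3.61 and 2.65. It was -1.98 in the 10133 named genes with at least 60 counts and -1.37 in the 2861 of like depth, so the order of members and named genes depended on the count minimum. The other unnamed features lay higher, at -0.29. All 13248 features with at least 60 counts had a median of -1.46, nearly that of the members. The ratio was above 0 for 35 members (17.5%), 26.9% of named genes of like depth and 43.6% of the other unnamed features. It was above 0 for 20.6% of named genes and 25.6% of all features with at least 60 counts.

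The members therefore changed places between the scales. Feature novel3863 had the lowest ratio, -4.86, and thus the longest implied length of the 200. It took 1.61 to 3.77% of the counts of a library but only 727 to 1185 TPM, and ranked 127 of all features by summed TPM. Its TPM were 832, 727, 769, 1185, 900 and 851, so on that scale C4 was highest, where by CPM it was C1. That change of library follows from the library constants, -0.639 for C1 and 0.602 for C4 in log2 units. They apply to every member alike and are no property of novel3863. The low ratios of novel3732, novel161, novel1726 and novel1108, from -4.62 to -3.89, place them next to novel3863.

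The highest ratios belonged to novel207, novel906, novel433, novel1688 and novel2780, from 4.78 down to 3.99. As a divisor, the implied length of novel207 was 797-fold shorter than that of novel3863, and that of novel2780 was 463-fold shorter. Folds this large need not be differences in transcript length, which is not given. In TPM these features were among the most abundant members. Feature novel906 had 6298, 8788, 7973, 2232, 2355 and 1404 TPM and ranked 7 of all features by summed TPM, against rank 521 by counts. Feature novel1688 had 8173, 8667, 7052, 39.3, 26.5 and 801 TPM and ranked 10, against 433. Both were far higher in C1, C2 and C3 on either scale.

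As a result the 200 members took a smaller part of TPM than of counts, 4.92%, 5.78%, 5.64%, 4.01%, 2.95% and 3.07%. All unnamed features took 17.0%, 18.4%, 18.2%, 11.2%, 9.07% and 9.12% of TPM, so the members were 29.0 to 35.9% of the unnamed TPM. When the 200 unnamed rows with the highest summed TPM were taken instead, 53 (26.5%) were the same features. Ranking by summed CPM kept 197 of the 200. Ranking by CPM in C1, C2 and C3 alone kept 171, and in C4, C5 and C6 alone 135. The choice of members thus leaned more on C1, C2 and C3, the libraries that went against their label.

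Members were reported with fractional counts more often than named genes. Between 78.5% and 93% of their deposited counts in a library were not whole to within 0.0005, against 62.2 to 83.0% in the named genes of like depth. In each of the 6 libraries the members' percentage was the higher. The other unnamed features and all features were not counted this way, so whether it is particular to the members was not tested. How fractional counts came about is not described in the labels.

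Some members had consecutive running numbers, in 31 pairs that involved 51 of the 200 (25.5%). Their profiles differed by a median of 0.77 in the root mean square of mean-centred log2(CPM + 1), against 1.10 over all 19900 pairs of members. The highest library was the same in 13 of the 31 consecutive pairs (41.9%) and in 21.2% of all pairs. Some pairs share a member, and every pair of the run novel3517 to novel3521 is among the 13. The labels and files do not say what order the numbers follow.

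The longest run was novel3517 to novel3521, 5 members that were each highest in C1 and lowest in C6. Their ratios were 14.5, 24.2, 21.4, 31.8 and 11.0. Feature novel3520 had 304, 276, 229, 28.0, 14.9 and 9.59 CPM, and novel3519 had 108, 83.8, 98.0, 28.9, 23.6 and 5.05 CPM. Features novel4588 and novel4589 were the closest of the 31 pairs, with a difference of 0.20. The first had 59.6, 56.4, 53.0, 134, 144 and 220 CPM and the second 161, 96.2, 123, 277, 323 and 496 CPM, both lowest among C1, C2 and C3 and highest in C6. Their log2 ratios of TPM to CPM were also alike, both -3.59. The widest apart were novel2 and novel3, at 3.39.

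Most members were measured in most libraries, which follows largely from their choice by summed count. No such count was made for the named genes. At least 10 counts were found for 199, 199, 199, 186, 184 and 192 of the 200 members in C1 to C6. Counts of 0 were found for 2 members in C4, 3 in C5 and 1 in C6, and a count of 0 allows a level of up to 1.31, 1.24 and 1.51 CPM there. Feature novel3947 had 454, 510, 246, 0, 0 and 0 counts. With 0 set to 3 counts per library, its level in C1 was at least 129-fold higher than in C6.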

How the data were processed

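Pituitary RNA of 6 sheep was read as amplified full-length complementary DNA, per the labels' protocols, which name the kits SQK-PCS109 and SQK-PBK004. Reads were aligned with minimap2 (version 2.17-r941), as the submitters' processing notes list. Counting tool, genome build, annotation and transcript lengths: not given in the sources used here. The authors deposited a table of estimated counts, not normalized, and a table of TPM that sum to 1000000 per library. From each, 4 rows of annotation text without values were left out.

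Estimated counts were rounded to whole numbers. CPM used library totals (1981644 to 2732911). Shares have 95% Wilson intervals and ratios exact conditional intervals, for counting error only, and a count of 0 was set to 3 counts. Ratios of TPM to CPM used counts as deposited. No test was run, because no library has a breed label. Python 3.11.15 was used, with TMM factors from edgeR 4.0.16 and size factors from DESeq2 1.42.0 as alternatives. Calculations were checked on simulated counts.

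The members and lists were chosen with earlier results of these data known. Members named were the 20 with the most counts, the 10 widest and 10 steadiest, the 5 highest and 5 lowest in TPM to CPM, and those at the boundary. For the 10 widest and 5 leading members the 2 most alike named genes were found. Any other member, the consecutive numbers, the fractional counts and the constancy of the TPM to CPM ratio were picked with values known. The result of 1 further marker list is not reported here.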

Additional observations from a re-analysis of the deposited data

How the results depend on the processing

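No paired analysis was possible because the labels put no library in a group. The labels give no replicates, so each value stands for single libraries. The median share of counts in the 200 members was 12.9%, and it was 11.3% with rows ranked by TPM, 12.2% with 100 rows, 13.7% with 400 rows, 4.47% as a share of TPM and 13.9% without the hormone genes in the totals. Leaving out each library gave 11.9 to 14.0%. The count of members with a ratio of at least 2 was 181, and it was 105 at a ratio of 4, 84 within C4, C5 and C6 alone and 16 within C1, C2 and C3 alone. Leaving out each library gave 163 to 180. In all 16 alternatives the members' percentage was above that of named genes of like depth, in TPM by 86 against 85.5%. Under TMM and DESeq2 scaling it was 86.5 against 73.3% and 83.5 against 73.1%. Against all features with at least 60 counts the order was not kept. The members were above at a ratio of 2 (90.5 against 84.9%) but not at 4 (52.5 against 52.8%). At a ratio of 2 they were lower within C4, C5 and C6 (42 against 45.8%) and within C1, C2 and C3 (8 against 19%). The members highest in C1 numbered 62, and 26 in TPM, where C4 led with 57. The median log2 ratio of TPM to CPM of the members, -1.47, was -0.88 within C4, C5 and C6 and -2.00 within C1, C2 and C3, and -1.78 to -1.17 with each library left out, since the library constants enter it. Unnamed features among the first 100 numbered 14, and 8 when ranked in C4, C5 and C6 alone. The number of members with 1 fixed TPM to CPM ratio was 198 at a tolerance of 0.001 and 200 at 0.1. Settings with C4, C5 and C6 or C1, C2 and C3 alone, without hormone genes or with other tolerances were chosen after the values were seen.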

Other observations

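The 5 members with the most counts were also set beside named genes, and each had a near match. For novel3863 the most alike of 2861 named genes was ZFAND3, at a root mean square difference of 0.063 in mean-centred log2(CPM + 1), and ZFAND3 stood at 208, 194, 159, 134, 93.0 and 120 CPM. For novel1 it was SDHC, a subunit gene of succinate dehydrogenase, at 0.081. For novel1726 it was ATP6AP2, an accessory gene of the vacuolar proton pump, at 0.081, and for novel702 and novel4610 it was DCAF7 and NSMCE2, at 0.11 each. The median difference to all 2861 genes was 0.62 to 0.77 for these 5 members, against 2.58 to 4.70 for the 10 widest. The values are descriptions over 6 libraries, and the nearest of 2861 genes is near by choice. A like profile shows no shared function.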
